A study of Mus musculus with 6 samples.

Results

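The genes described here encode enzymes and carriers that act on nucleotides, nucleosides and purines, at the cell surface or inside the cell. They are Ada, Nt5e, Enpp3, Entpd8, Slc28a1, Slc28a2, Slc29a1, Entpd5 of the endoplasmic reticulum, and the intracellular enzymes Adk and Xdh. They were chosen by name, with the difference between the mouse groups already known for these arrays, and each was read from the probe set whose array annotation gives its symbol alone. All 10 were measured, among 19938 genes in all, and none had a further probe set of that kind. Because that contrast was in view when they were picked, the differences given for the 10 genes are a description and carry no test.

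RNA came from mucosa scraped off the jejunum, the middle stretch of the small intestine. The first group was 3 arrays of ISR2 mice, a transgenic line on a C57/BL background in which SREBP2 is overactive specifically in the intestine, and the second was 3 arrays of wild type C57/BL littermates. Both groups were 8 to 10 weeks old and ate regular chow. SREBP2 is the transcription factor that switches on cholesterol synthesis and uptake. The sources used here give neither the promoter of the transgene nor the number of founder lines, nor whether each array stands for a separate mouse, so the spread between arrays may in part be technical.

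Nucleotides that reach the gut lumen or leave cells are shortened stepwise at the cell surface. Ectonucleotidases remove phosphates until AMP remains, 5'-nucleotidase turns AMP into adenosine, and adenosine deaminase turns adenosine into inosine. Sodium-coupled carriers at the brush border then move nucleosides into the enterocyte, and equilibrative carriers let them cross other membranes down their gradient. Inside, adenosine is rephosphorylated or deaminated, and purines that are not salvaged end as uric acid. Adenosine is also a signal that dampens inflammation in the gut.

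Values are log2 expression after RMA, a method that corrects background, equalises the arrays and summarises the probes of a gene, so a difference of 1 is a 2-fold difference. Srebf2, the gene of SREBP2, stood at 11.02, 10.85 and 11.16 in ISR2 replicates 1, 2 and 3, against 9.04, 9.15 and 9.50 in wild type replicates 1, 2 and 3, which is in the direction of the labels. The enterocyte markers that define the tissue, such as Vil1 and Fabp2, were bright on every array: the mean of 13 such genes was 12.46 to 12.58 in ISR2 and 12.69 to 12.77 in wild type. Limma, a linear model fitted to all genes together, called 602 genes at an adjusted p below 0.05, with 356 higher and 246 lower in ISR2. The medians of the 6 arrays lay between 6.04 and 6.19. Pearson's r across genes, which are not independent replicates, was 0.978 to 0.991 within a group. Between groups it was 0.97 to 0.982, so the ranges overlap. ISR2 replicate 2 was the array least like the other ISR2 arrays. In mucosal RNA, fewer cells of a kind and less RNA per cell cannot be told apart.

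Among these 10 genes the largest differences were the falls of Ada, Slc28a2, Nt5e and Enpp3. On average 8 of the 10 genes were lower and 2 were higher in ISR2. In 6 of them, Ada, Slc28a2, Nt5e, Enpp3, Slc28a1 and Xdh, all 3 ISR2 arrays lay below all 3 wild type arrays, a separation that 13.9% of all genes showed. In 1, Entpd5, all 3 ISR2 arrays lay above, as in 5.87% of all genes. The groups overlapped in Slc29a1, Adk and Entpd8. The 6 separated downward were also the members called lower in the fit, where 1.23% of all genes were called lower. None of the 10 was called higher, beside 1.79% of all genes, and 3.02% of all genes were called in either direction. The genes were picked with this contrast known, so nothing is read from these counts. The median log2 change of the 10 was -0.94, beside -0.06 over all genes.

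**Figure D1:**
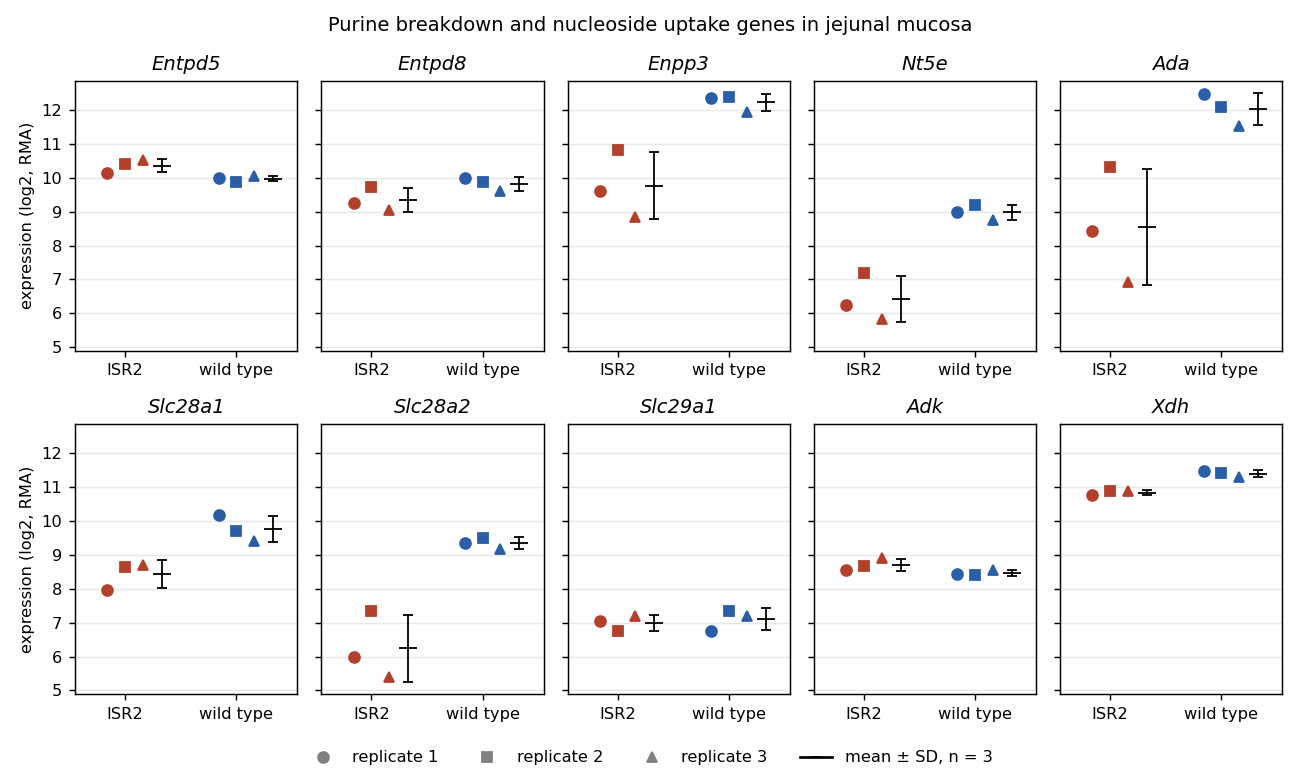
Log2 RMA expression of the 10 genes in each array, with ISR2 (red) left of wild type (blue) and the mean ± SD of 3 arrays beside each group. Ada, Nt5e, Enpp3 and Slc28a2 show a wide spread among the ISR2 arrays, with replicate 2 (square) highest and replicate 3 (triangle) lowest in each, while the spread in wild type is narrower.

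The 4 genes with the largest falls are Ada, Slc28a2, Nt5e and Enpp3, and because they moved together their promoters are printed here, from 250 bases before to 50 bases after the start site (RefSeq, GRCm38.p6, 5' to 3' on the strand of the gene). Capitals mark matches to the motifs searched.
Ada, chr2:163750190-163750489, minus strand: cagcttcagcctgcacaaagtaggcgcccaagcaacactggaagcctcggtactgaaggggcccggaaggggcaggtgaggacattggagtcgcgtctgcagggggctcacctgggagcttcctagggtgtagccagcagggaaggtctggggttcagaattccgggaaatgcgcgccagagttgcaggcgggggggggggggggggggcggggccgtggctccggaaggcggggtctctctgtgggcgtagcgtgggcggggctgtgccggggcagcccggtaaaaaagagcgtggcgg
Slc28a2, chr2:122426185-122426484, plus strand: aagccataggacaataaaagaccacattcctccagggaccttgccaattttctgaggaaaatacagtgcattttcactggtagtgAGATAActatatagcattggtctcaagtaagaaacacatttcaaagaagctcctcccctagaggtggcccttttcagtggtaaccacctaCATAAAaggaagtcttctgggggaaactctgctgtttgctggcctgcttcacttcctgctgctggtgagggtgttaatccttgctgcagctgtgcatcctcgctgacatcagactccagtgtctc
Nt5e, chr9:88327359-88327658, plus strand: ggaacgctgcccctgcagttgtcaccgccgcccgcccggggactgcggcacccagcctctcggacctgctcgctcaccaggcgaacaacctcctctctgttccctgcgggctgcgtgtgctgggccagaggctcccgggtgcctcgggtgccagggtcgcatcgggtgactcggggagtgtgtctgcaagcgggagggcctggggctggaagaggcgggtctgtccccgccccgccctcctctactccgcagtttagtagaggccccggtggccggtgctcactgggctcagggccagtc
Enpp3, chr10:24836146-24836445, minus strand: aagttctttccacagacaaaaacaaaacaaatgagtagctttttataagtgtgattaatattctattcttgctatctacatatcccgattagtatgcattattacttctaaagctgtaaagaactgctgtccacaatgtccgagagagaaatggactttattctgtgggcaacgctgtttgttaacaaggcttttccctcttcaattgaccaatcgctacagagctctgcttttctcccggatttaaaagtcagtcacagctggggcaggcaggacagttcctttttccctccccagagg

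These windows differ in base composition: Nt5e has 71% G or C and Ada 68%, whereas Slc28a2 has 46.7% and Enpp3 40.7%, and the median of the 32851 promoters in the table is 52.7%. Motifs were searched on both strands. The core of the sterol regulatory element, TCACNCCAC, to which SREBP factors bind, was matched in none of the windows of the 9 members that have one, and in 1.24% of all promoters. The same held for a site of the enterocyte factor HNF4, CAAAGTCCA, found in 0.475% of all promoters. The Slc28a2 window held a GATA site, AGATAA, from -165 to -160, which 11.2% of all promoters hold, and on the other strand a caudal-type site, TTTATG, from -75 to -70, which 11.9% hold. These matches do not overlap. Slc29a1, whose groups overlapped, also held a GATA site, a caudal-type site, an E-box and nuclear receptor half-sites among its 8 windows, and Entpd8 held a half-site. The windows of Ada, Nt5e and Enpp3 held none of these motifs, and neither the nuclear receptor half-site AGGTCA (16.3% of all promoters) nor the E-box CACGTG (7.15%). A match is a description of letters only, and a motif missing here may lie elsewhere in the gene. Xdh has no entry in the table.

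Of the members that take phosphates off nucleoside triphosphates and diphosphates, the surface enzymes Enpp3 and Entpd8 were lower on average. Entpd5, which is not a surface enzyme, was higher. Enpp3, an ectoenzyme that splits ATP to AMP, stood at 9.62, 10.81 and 8.85 in ISR2 replicates 1, 2 and 3, against 12.35, 12.39 and 11.94 in the wild type replicates. Every ISR2 array lay below every wild type array, with a gap of 1.13 between the nearest pair, and the mean was 5.52-fold lower in ISR2 (log2 change -2.46, SE 0.41). Entpd8, a surface enzyme that shortens nucleotides in the gut and liver, was at 9.25, 9.72 and 9.05 in ISR2 and 9.99, 9.88 and 9.60 in wild type. Its groups overlapped, since ISR2 replicate 2 was above wild type replicate 3, and the mean log2 change was -0.49 (SE 0.19). Entpd5, a nucleoside diphosphatase of the endoplasmic reticulum that serves protein glycosylation, was at 10.14, 10.40 and 10.53 in ISR2 and 10.00, 9.88 and 10.04 in wild type. Here the ISR2 arrays were the higher ones, by a gap of only 0.10 and a mean of 0.38 (SE 0.14). Within the ENTPD pair the mean therefore lay on opposite sides of wild type.

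Nt5e, the 5'-nucleotidase CD73 that makes adenosine from AMP, was at 6.26, 7.18 and 5.83 in ISR2 replicates 1, 2 and 3 and 8.99, 9.20 and 8.75 in wild type. The groups were 1.57 apart at their nearest arrays. The mean was 5.88-fold lower in ISR2 (-2.56, SE 0.30). No background signal was available, so the ISR2 values of Nt5e were not shown to be above background and the measured fold may be too small.

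Ada, the adenosine deaminase that removes adenosine by turning it into inosine, was at 8.42, 10.32 and 6.92 in ISR2 replicates 1, 2 and 3, against 12.46, 12.09 and 11.54 in wild type. No ISR2 array reached the wild type range, but the ISR2 arrays were far apart. Replicate 2 lay 3.27-fold, replicate 1 12.2-fold and replicate 3 34.5-fold below the wild type mean. The range among ISR2 arrays, 3.40, was close in size to the mean difference of -3.47 (SE 0.69), so the size of the fall is loosely set. Without ISR2 replicate 2 the mean difference was -4.36, and without ISR2 replicate 3 it was -2.66.

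Of the 3 carriers, both sodium-coupled ones were lower in ISR2. Slc28a2, the concentrative carrier CNT2 that takes up purine nucleosides with sodium, was at 5.99, 7.33 and 5.41 in ISR2 replicates 1, 2 and 3 and 9.35, 9.51 and 9.16 in wild type. The gap between the nearest arrays, 1.83, was the widest of the 10 genes, and the mean was 8.55-fold lower in ISR2 (-3.10, SE 0.40). As for Nt5e, the lowest ISR2 values were not shown to be above background. Slc28a1, the carrier CNT1 that prefers pyrimidine nucleosides, was at 7.97, 8.64 and 8.69 in ISR2 and 10.17, 9.69 and 9.41 in wild type. It too was lower in every ISR2 array, by a mean of 2.50-fold (-1.32, SE 0.24). Set against its own wild type mean, Slc28a2 was lower than Slc28a1 by a further 1.57, 0.89 and 2.86 on the log2 scale in ISR2 replicates 1, 2 and 3. Slc29a1, the equilibrative carrier ENT1, was at 7.04, 6.74 and 7.21 in ISR2 and 6.74, 7.35 and 7.21 in wild type. Its groups overlapped throughout, and the mean difference was -0.10 (SE 0.19).

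Of the enzymes inside the cell, Adk, the adenosine kinase that returns adenosine to AMP, was at 8.55, 8.67 and 8.90 in ISR2 and 8.45, 8.40 and 8.56 in wild type. The lowest ISR2 array just failed to clear the highest wild type array, and the mean was 0.24 higher in ISR2 (SE 0.13). Xdh, xanthine dehydrogenase, which carries out the last steps to uric acid, was at 10.76, 10.88 and 10.88 in ISR2 and 11.48, 11.42 and 11.30 in wild type. Its fall was small and even: the mean was 1.47-fold lower in ISR2 (-0.56, SE 0.12), and the ISR2 arrays spanned 0.13.

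**Figure D2:**
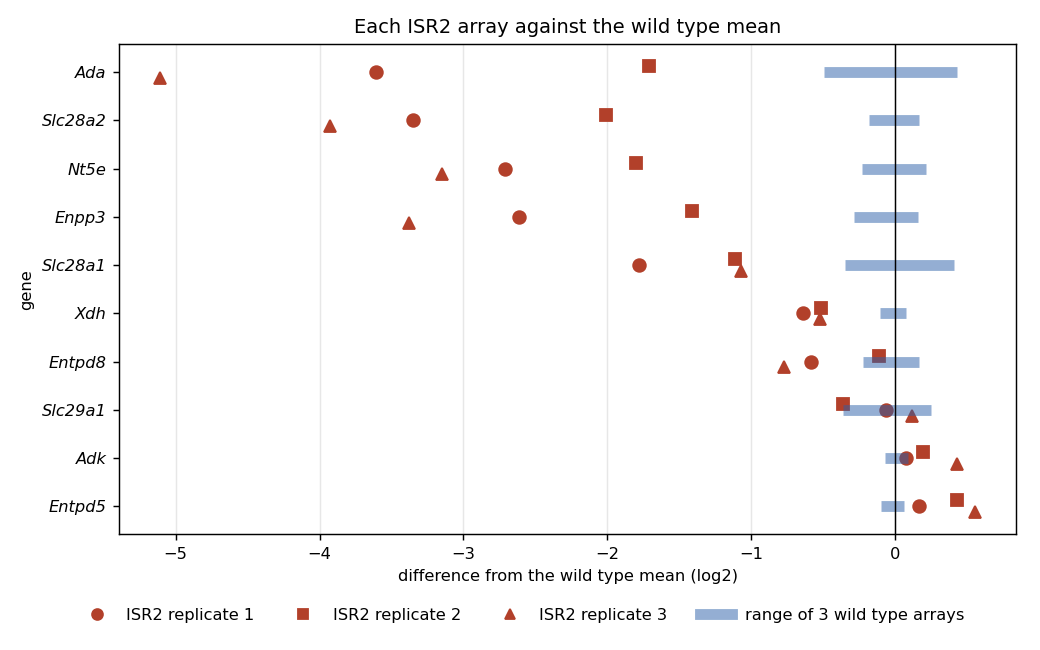
Log2 difference of each ISR2 array from the wild type mean (red symbols, by replicate) for the 10 genes, with the range of the 3 wild type arrays as a blue bar. Ada spans 3.40 across its ISR2 arrays, Slc28a2 1.92, Enpp3 1.97 and Nt5e 1.36, against 0.13 for Xdh, and in Slc29a1, Adk and Entpd8 the symbols reach the wild type bar.

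The ISR2 arrays kept the same order in the 4 genes that fell most. In Ada, Slc28a2, Nt5e, Enpp3 and Entpd8 the value was highest in ISR2 replicate 2 and lowest in ISR2 replicate 3, which makes 5 of 10 members, against 22.9% of all genes and 31.2% of the 240 other genes called lower. The SD among ISR2 arrays was 1.71 for Ada, 0.99 for Slc28a2, 0.99 for Enpp3 and 0.69 for Nt5e, where the median over all genes was 0.18. Slc28a1 did not follow that order, with replicate 1 lowest, and Xdh hardly varied (SD 0.07). Among the wild type arrays, replicate 3 was the lowest in 7 of the 10 genes, beside 34.9% of all genes and 53.3% of the other genes called lower.

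Which members count as called depended on single arrays. Without ISR2 replicate 1 or wild type replicate 1, only Nt5e and Slc28a2 were called, that is 2 of 10. Without wild type replicate 2, 3 were called, with Enpp3 as the third. Without any other array 5 were called, with Xdh the one lost. With all rows of the array tested, Nt5e and Slc28a2 alone were called, with the robust option Ada was lost, and with each array centred on its median Xdh was lost. With array weights 7 were called, Entpd8 being the one gained. Nt5e and Slc28a2 were called under all 15 other settings.

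Lists of marker genes were read beside these differences, and their part in them was not tested. Other genes known from enterocytes near the villus tip, the place where Ada and Nt5e are strongest in mouse, were lower on average in 9 of 9 measured genes. Of these, 2 were called lower, beside 1.23% of all genes. The called pair was Apoc3, an apolipoprotein of fat-rich particles, with a log2 change of -1.72 (SE 0.25, limma adjusted p = 0.00585), and Clca4a, a calcium-activated channel regulator, at -1.24 (SE 0.26, limma adjusted p = 0.0365). The list mean was 8.82, 9.04 and 8.61 in ISR2 replicates 1, 2 and 3 and 9.51, 9.40 and 9.36 in wild type. In this mean the ISR2 arrays stood in the order seen for Ada, which 5 of the 9 genes kept, beside 22.9% of all genes. Markers of T cells and intraepithelial lymphocytes, cells that can also carry CD73, were called lower in 5 of 11 genes, beside 1.23% of all genes. These were Cd3e, Cd3g, Cd7, Cd8a and Gzmb. The list means were 6.85, 6.99 and 6.47 in ISR2 and 7.72, 7.72 and 7.32 in wild type. The mean of this list, too, was highest in ISR2 replicate 2 and lowest in ISR2 replicate 3, an order that 6 of the 11 genes kept. Enterocyte markers as a whole were called in 0 of 13 by limma, with 5 at an unadjusted p below 0.05. Their median log2 change was -0.18, beside -0.06 over all genes. Of these 13, 10 were lower on average. In 7 all 3 ISR2 arrays lay below all 3 wild type arrays, beside 13.9% of all genes. Of 10 genes that mark position along the small intestine, 2 were called, beside 3.02% of all genes. Hsd17b6, high in the proximal part, had a log2 change of -1.13 (SE 0.18, limma adjusted p = 0.00994). For Slc10a2, the bile acid carrier of the ileum, the change was 1.01 (SE 0.14, limma adjusted p = 0.00461). Slc10a2 was the only gene of this list that was higher on average, and 9 of 10 were lower. Other genes of the distal part had -0.26 (Fabp6, a bile acid binding protein), -1.09 (Cubn, the vitamin B12 receptor) and -0.35 (Pyy, a gut hormone), and did not pass. Slc10a2 was dim, at 5.48, 5.78 and 5.63 in ISR2 and 4.53, 4.51 and 4.81 in wild type. Fabp6 lay at 4.61 to 5.17, and neither gene was shown to be above background.

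The mean of 9 genes of the crypt base and of dividing cells did not separate the groups, but ordered the arrays within each group in reverse to Ada. It was 8.26, 7.52 and 8.45 in ISR2 replicates 1, 2 and 3, against 7.64, 8.05 and 8.53 in wild type replicates 1, 2 and 3. The groups overlapped, the median log2 change was -0.05 with 5 genes lower and 4 higher on average, and limma called 0 of the 9 genes, with 1 at an unadjusted p below 0.05. Within each group the array with the most crypt signal was the one with the least Ada, and the array with the least crypt signal had the most Ada. This order was not particular to the crypt list. Genes that build purines from scratch had list means of 7.53, 7.15 and 7.75 in ISR2 and 7.24, 7.46 and 7.72 in wild type. Pcna, of the crypt list, did not follow it, at 10.83, 10.88 and 10.59 in ISR2. A link to Ada was not tested. Stroma and vessel markers were called in 0 of 10 genes (0 at an unadjusted p below 0.05), and their list mean was 7.76 to 8.18 in ISR2 and 7.02 to 8.71 in wild type. The smooth muscle genes Acta2, Myh11, Des and Tagln were highest in replicate 2 of both groups. Acta2 read 11.38 on that ISR2 array, beside 9.36 and 9.33 on the others. In wild type it read 12.14, beside 8.16 and 9.38. The SE of these muscle genes ran from 0.72 to 1.02, so the lack of calls does not show equal muscle content. Col1a1, Col3a1, Pdgfra, Pecam1, Cdh5 and Kdr were instead lowest in ISR2 replicate 2. A link to the ISR2 spread was not tested. B and plasma cell markers were called in 0 of 6 (1 unadjusted), goblet and Paneth cell markers in 0 of 6 (2 unadjusted) and pancreatic acinar markers in 0 of 5 (0 unadjusted). Their list means were 5.99 to 6.75, 11.36 to 11.72 and 5.55 to 5.82 in ISR2, and 6.59 to 6.92, 11.75 to 12.07 and 5.87 to 6.08 in wild type. On average 6 of 6, 6 of 6 and 5 of 5 of these genes were lower in ISR2. Their median log2 changes were -0.35, -0.26 and -0.22, beside -0.06 over all genes. In the goblet and Paneth list and in the acinar list, every ISR2 mean lay below every wild type mean. The lack of calls thus does not show equal content of these cells. Of 7 myeloid markers, Cd14, a receptor for bacterial lipopolysaccharide on macrophages, was called higher and none lower, beside 1.79% and 1.23% of all genes. The median change of these 7 was -0.22 and 5 of them were lower on average, among them the macrophage genes Lyz2 (-0.59) and Cd68 (-0.41), which did not pass. Their list means were 6.63 to 7.31 in ISR2 and 6.98 to 7.33 in wild type. No background signal was available, so dim markers such as Ms4a1, at 4.18 to 5.15 over the arrays, were not shown to be above background.

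**Figure D3:**
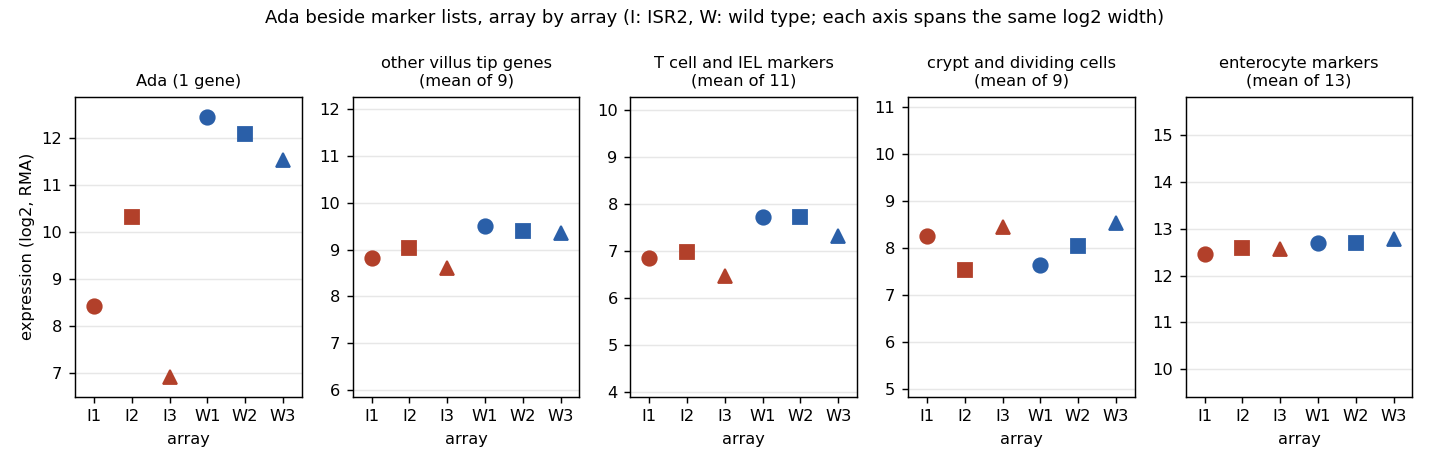
Log2 RMA expression of Ada and the mean of 4 marker lists in ISR2 arrays 1 to 3 (red) and wild type arrays 1 to 3 (blue), each panel spanning the same log2 width. Ada is highest of the ISR2 arrays in replicate 2, at 10.32, where the crypt list is lowest, at 7.52, and lowest in replicate 3, at 6.92, where the crypt list is highest, at 8.45.

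The genes whose pattern over the 6 arrays was nearest to that of Ada were found by the root mean square difference between values centred on each gene's mean, a measure in which a large fall counts. Of all other genes, Slc28a2 was the 2nd nearest (0.52), Enpp3 the 3rd (0.67) and Nt5e the 6th (0.78). These members were picked with this contrast known and fell far, so nothing is read from their ranks. The 5 nearest genes outside the set were Ly6m, a Ly6 family gene (0.50), Susd2, which encodes a sushi domain protein of the membrane (0.75), Pck1, the phosphoenolpyruvate carboxykinase of gluconeogenesis (0.76), Tmprss15, the enteropeptidase that activates trypsinogen (0.84), and Vnn1, a pantetheinase (0.98). Tmprss15, at 5.05, 6.05 and 4.63 in ISR2 and 8.27, 7.39 and 6.92 in wild type, kept the same order of ISR2 arrays as Ada. So did Ly6m, at 7.50, 8.72 and 6.03 in ISR2. Susd2, Pck1 and Vnn1 were also highest in ISR2 replicate 2, but lowest in replicate 1. Vnn1 ranked 8th in likeness although its SD among ISR2 arrays was 0.17, against 1.71 for Ada. Susd2 stood at 6.86, 7.73 and 6.87 in ISR2, with replicates 1 and 3 nearly equal, against 11.04, 10.97 and 10.29 in wild type. Slc28a1 ranked 77th in likeness to Ada (1.48), while Slc29a1 ranked 14651st, Adk 17665th and Entpd5 18487th.

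Other genes of nucleotide metabolism, listed with some relatives, held calls in both directions. Of 95 measured genes in 6 lists of related enzymes, carriers and receptors, 3 were called higher (3.16%, beside 1.79% of all genes) and 3 lower (3.16%, beside 1.23% of all genes). Their median log2 change was -0.05, beside -0.06 over all genes. All 3 ISR2 arrays lay below wild type in 10.5% of them and above it in 7.37%, beside 13.9% and 5.87% of all genes. All 3 called falls and 1 of the called rises were in the list of other ectonucleotidases and their relatives, with 17 genes measured. Of these falls, Enpp7 is that of a relative that acts on sphingomyelin rather than on nucleotides. The lists were fixed with earlier results of these data known, so nothing is read from these shares.

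Acpp, the prostatic acid phosphatase, whose membrane form can turn AMP into adenosine as Nt5e does, was higher in ISR2. It stood at 8.95, 8.62 and 8.61 in ISR2 replicates 1, 2 and 3, against 6.82, 6.73 and 7.14 in wild type. The ISR2 arrays were all above, and the rise was 3.56-fold (log2 change 1.83, SE 0.16, limma adjusted p = 0.000265). It was called without each array in turn.

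Enpp7 shares a family with Enpp3 but is the brush border alkaline sphingomyelinase. It was at 10.49, 10.24 and 9.13 in ISR2 and 12.26, 12.22 and 11.82 in wild type, a fall by 2.15 on the log2 scale (SE 0.31, limma adjusted p = 0.00569) that was called without each array in turn. Bst1, which encodes the ectoenzyme CD157 that acts on NAD, was at 10.18, 10.82 and 9.99 in ISR2 and 11.46, 11.30 and 11.10 in wild type (log2 change -0.96, SE 0.21, limma adjusted p = 0.048). Alpi, the intestinal alkaline phosphatase, was at 11.85, 12.31 and 12.32 in ISR2 and 13.11, 12.87 and 12.80 in wild type (-0.77, SE 0.16, limma adjusted p = 0.0417). Both were lower in every ISR2 array, but each call was lost without ISR2 replicate 1 or 3 or without any wild type array (limma adjusted p up to 0.216 for Bst1 and 0.194 for Alpi). Both calls were also lost after centring each array on its median (limma adjusted p = 0.0821 for Bst1 and 0.0882 for Alpi) and with all rows of the array tested (limma adjusted p = 0.133 and 0.112), and that of Bst1 after a further quantile normalization (limma adjusted p = 0.0601).

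**Figure D4:**
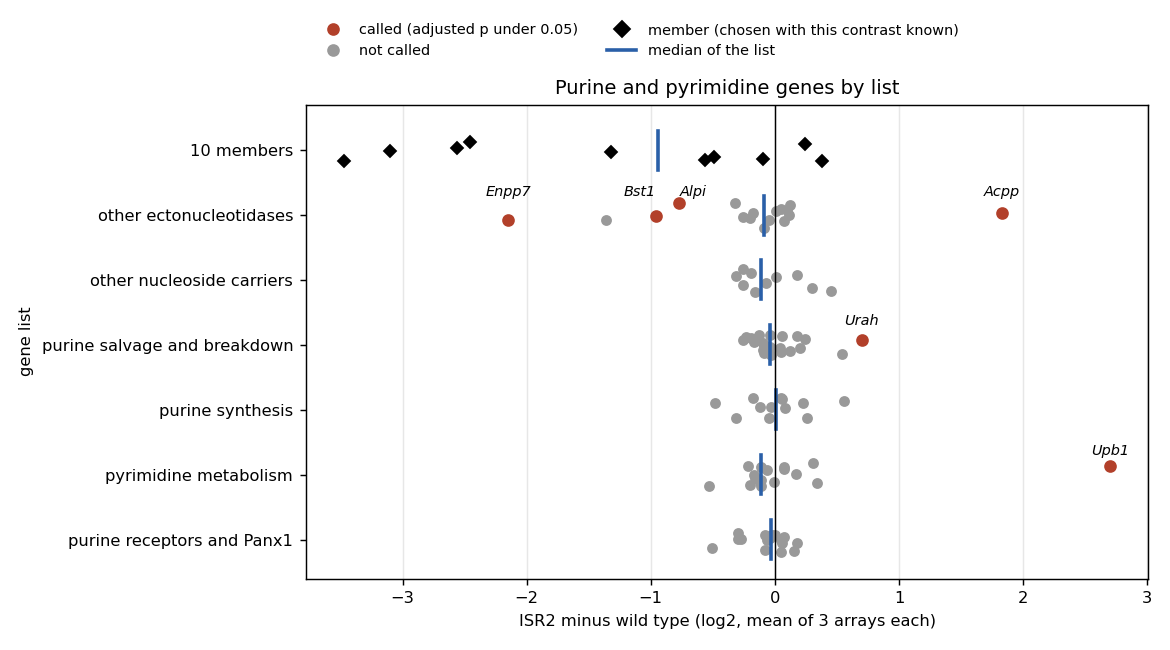
Log2 change, ISR2 minus wild type, of the 10 members (black diamonds) and of 95 related genes in 6 lists (circles, red where called), with the median of each list as a blue bar. The members reach -3.47, while the medians of the 6 lists lie between -0.11 and 0.01 and the called genes are Acpp, Enpp7, Bst1, Alpi, Urah and Upb1.

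The other carriers of nucleosides, nucleotides and urate held 0 calls among 10 in limma, with 2 at an unadjusted p below 0.05. These were Slc43a3, a purine nucleobase carrier, with a log2 change of 0.45 (SE 0.20, limma adjusted p = 0.378), and Abcg2, which exports urate, with 0.30 (SE 0.12, limma adjusted p = 0.335). Slc17a9, the vesicular nucleotide carrier, had -0.26 (SE 0.12, limma adjusted p = 0.412). Slc28a3, the third sodium-coupled carrier of the family of Slc28a1 and Slc28a2, named after its value was seen, had -0.19 (SE 0.19, limma adjusted p = 0.75), and its groups overlapped. Changes in this list ran from -0.31 to 0.45.

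Among 23 genes of purine salvage and breakdown inside the cell, 1 was called. Urah, a hydrolase that acts after urate, was at 8.52, 8.71 and 8.59 in ISR2 and 8.15, 7.65 and 7.91 in wild type, a rise of 1.63-fold (0.70, SE 0.15, limma adjusted p = 0.0426). That call was lost in 5 of 6 fits without an array, the exception being wild type replicate 1 (limma adjusted p up to 0.154), and also with all rows tested (limma adjusted p = 0.11). Nt5c3, a cytosolic nucleotidase, had 0.54 (SE 0.13, limma adjusted p = 0.0772), and Nt5c1b, another, 0.20 (SE 0.12, limma adjusted p = 0.555). The other members of this list lay between -0.26 and 0.24. Of 12 genes that build purines from scratch, 0 were called by limma and 1 had an unadjusted p below 0.05: Adsl, adenylosuccinate lyase, at 0.56 (SE 0.21, limma adjusted p = 0.281). Prps1 and Prps2, which make the ribose phosphate for this route, had -0.31 and -0.48 (limma adjusted p = 0.416 and 0.622).

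In pyrimidine metabolism 1 of 17 genes was called. Upb1, the ureidopropionase of the last step of uracil breakdown, was at 9.70, 9.39 and 9.33 in ISR2, against 7.17, 6.60 and 6.54 in wild type. It was higher in every ISR2 array, by 6.51-fold (2.70, SE 0.19, limma adjusted p = 6.22e-05), and was called without each array in turn. None of the other 16 was called: Upp1, uridine phosphorylase, had -0.53 (SE 0.13, limma adjusted p = 0.0772), Dpys, which acts directly before Upb1, -0.17 (SE 0.14, limma adjusted p = 0.687), and Tk2, the mitochondrial thymidine kinase, -0.20 (SE 0.12, limma adjusted p = 0.553).

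Among 16 measured genes, the nucleotide receptors and the ATP release channel Panx1, limma called 0, and 1 had an unadjusted p below 0.05. That was P2ry2, a receptor for ATP and UTP, at 8.54, 8.48 and 8.12 in ISR2 and 8.96, 9.06 and 8.64 in wild type (-0.51, SE 0.16, limma adjusted p = 0.199). P2ry13 and P2rx7 had -0.30 and -0.27 (limma adjusted p = 0.555 and 0.56). The adenosine receptors were not analysed here.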

How the data were processed

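Total RNA of jejunal mucosal scrapings was labelled with biotin and hybridised to Affymetrix whole-transcript arrays, per the labels' protocols, with 3 in each group. The deposited log2 values were made by the authors, who used RMA per the submitters' processing notes; the sources used here give neither version nor filters. Equalising arrays removes a change shared by most genes, and background left after correction compresses changes of dim genes. The number of arrays limits precision.

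Of 35556 rows, 21789 had 1 symbol in the array annotation, 1621 several and 12146 none. For 999 genes with several rows the brightest on average was used. limma 3.58.1 (R 4.3.3, lmFit and eBayes, no covariates, two-sided) compared ISR2 with wild type over 19938 genes with Benjamini-Hochberg adjustment, called at 0.05. The steps were tested on simulated data. Alternatives were array weights, an intensity trend, quantile normalization, centring on medians, robust eBayes, a filter at a mean of 6, averaged rows, all rows, the replicate number as a block and each array left out.

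The members, lists, motifs and rules were chosen with earlier results of these data known. Genes named were the members, Srebf2, called genes of the pathway lists (with those of smallest p, up to 3 a list), the 5 nearest to Ada and called or standing-apart markers. Dpys, Slc28a3, Fabp6, Cubn, Pyy, Lyz2, Cd68, Vil1, Fabp2 and the likeness ranks of members were named as examples after values were seen. Promoters came from RefSeq (GRCm38.p6), with 9 of 10 members matched. Figures were drawn with matplotlib 3.10.9.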

Additional observations from a re-analysis of the deposited data

How the results depend on the processing

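The log2 changes of all 10 members moved by less than the spread between replicates under each of the 15 other settings. Counts of calls moved more. Over all genes, 356 were higher and 246 lower; array weights gave 630 and 638, median centring gave 155 lower, and testing all rows gave 91 lower. Leaving out each array in turn gave 236 to 353 higher and 85 to 236 lower over all genes, and 2 to 5 members lower, while testing all rows gave 2 members lower. Of the other pathway genes, 3 were higher and 3 lower; array weights gave 5 higher, median centring and all rows each gave 1 lower, and leaving out each array in turn gave 2 to 3 higher and 1 to 3 lower. The cause was not tested, though all rows adjusts over more tests and each fit without an array has fewer samples. With the replicate number as a block, 426 genes were higher and 352 lower and 5 members were lower, with Xdh lost. With that block the SE was 0.45 for Ada and 0.18 for Nt5e, against 0.69 and 0.30 in the main fit. For Slc28a1 it was 0.25 against 0.24. Deviations from the group means correlated across genes at -0.0161, 0.323 and 0.54 between arrays numbered 1, 2 and 3 in both groups. Between arrays of different numbers the values were -0.536 to 0.2. Numbers 2 and 3 thus lay above every pair of different numbers, and number 1 did not. The main fit did not treat the numbers as pairs, and whether they mark a shared batch was not settled. No background signal was used, so changes of dim genes may be understated.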
